A study of Mus musculus with 4 samples.

Results

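The cells described here are the W3B retinal ganglion cells (RGCs), taken as every cell that the authors' deposited type prediction names 06_W3B. They numbered 4737 of the 131379 RGCs in the table, 3.61% of all cells, which made W3B the type with rank 6 by number among 45 types. The study imaged transcripts with Xenium, an assay that decodes single RNA molecules as puncta inside tissue, in en face cryosections of retina cut at 20 µm. All 5 retinas came from wild-type C57BL/6 mice that had not been manipulated, and a custom panel of 300 genes was read. There was no treated or mutant group, so the comparisons lie between W3B cells and the other 44 RGC types of the same retina and between positions within a retina. The replicate was the retina (n = 5). Nothing in the labels ties each retina to its own animal, and the p-values cover no more than the spread among these 5.

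RGCs are the output neurons of the retina, and each RGC type carries its own reading of the visual scene to the brain. The W3 cells were named after a transgenic mouse line that labels small RGCs with narrow dendritic trees in the middle of the inner plexiform layer. W3B cells are known to respond to small objects that move differently from their background and to stay silent when the whole scene moves. Cells of one RGC type are commonly spread over the retina at a minimum distance from each other, an arrangement called a mosaic.

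The share of W3B cells among RGCs was 3.59% in retina 1, 3.72% in retina 2, 3.49% in retina 3, 3.55% in retina 4 and 3.53% in retina 5. These correspond to 1259, 1529, 458, 984 and 507 cells, so retinas 3 and 5 carry the largest counting error. W3B cells lay in 38 of the 41 sections, and the 3 sections without one held at most 134 RGCs each. Among the 4 types with W3 in their name, W3B made up 17.4% to 19.6% in the 5 retinas. W3B cells were slightly deeper than the other cells in all 5 retinas. The median W3B cell held 290.5 to 351 puncta by retina, against 284 to 325 for the other RGCs. Every cell kept in the table held at least 100 puncta.

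The label was checked against its markers, Zic1 and Penk. Zic1 encodes a zinc finger transcription factor and Penk encodes proenkephalin, the precursor of the opioid peptides called enkephalins. In the GRCm38.p6 annotation of RefSeq Zic1 lies at chr9:91358058-91365768 and Penk at chr4:4133536-4138815. Zic1 reached 6.80, 5.79, 4.43, 5.50 and 4.96 puncta per W3B cell in retinas 1 to 5, against 0.0885, 0.0737, 0.0830, 0.0671 and 0.0730 in the mean of the other types. All W3B values lay above all values of the other types. Penk reached 13.9, 12.1, 11.3, 12.4 and 11.7 puncta per W3B cell, against 1.45, 1.36, 1.38, 1.35 and 1.39 in the mean of the other types. Both markers were thus present in the cells that carry the name. The sources used here do not say how types were assigned, which may rest on these genes, so the gene levels of W3B against other types are given as a description, with no test.

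**Figure D1:**
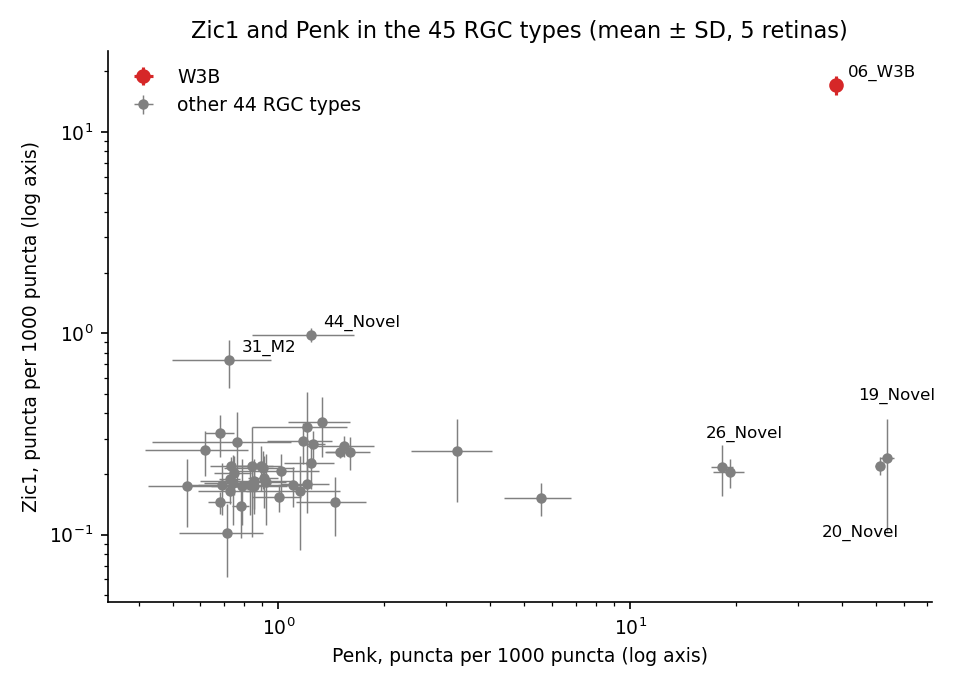
Zic1 (vertical) against Penk (horizontal), both in puncta per 1000 puncta on log axes, for the 45 RGC types; points are means over 5 retinas and bars are SD. W3B stands alone at 17.1 Zic1 and 38.4 Penk, while 19_Novel (53.9) and 20_Novel (51.2) lie further right in Penk but at the Zic1 level of the other types.

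Zic1 set W3B apart from every other type on the panel. Counted per 1000 puncta of the same cells, which removes differences in depth, W3B held 17.1 ± 1.9 Zic1 puncta (SD, n = 5 retinas) and the mean of the other types 0.242 ± 0.020. This is a log2 ratio of 6.14 ± 0.21. The next types were 44_Novel with 0.984 and 31_M2 with 0.734 per 1000. W3B cells, 3.61% of the RGCs, held 74.3% ± 3.5 of all Zic1 puncta in the table. Penk was shared with other types. W3B held 38.4 ± 1.4 Penk puncta per 1000 and had rank 3 among the 45 types, below 19_Novel at 53.9 ± 2.5 and 20_Novel at 51.2 ± 1.6. Next below W3B stood 15_Novel with 19.2 ± 1.9 and 26_Novel with 18.3 ± 1.3. W3B held 32.4% ± 0.98 of all Penk puncta.

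Most single W3B cells held both markers. Of the 4737 cells, 4549 held at least 1 punctum of each gene, 29 held Zic1 without Penk, 144 held Penk without Zic1 and 15 held neither. The median cell held 5 Zic1 puncta, with quartiles of 3 and 8, and 12 Penk puncta, with quartiles of 8 and 17. The 159 cells without Zic1 were shallower, with a median of 192 puncta against 326 in those with it, and held 7.14 against 12.7 Penk puncta per cell. Zic1 was found in 96.4% ± 1.1 of W3B cells and in 5.20% ± 0.37 of the other RGCs, at median depths of 323 and 303 puncta. With every cell thinned to 100 puncta the shares were 78.5% ± 3.4 in W3B cells and 2.13% ± 0.09 in the others. Penk was found in 98.9% ± 0.74 of W3B cells and in 20.9% ± 0.55 of the others, and after thinning in 95.5% ± 1.1 and 12.1% ± 0.29. A cut on Zic1 alone is given as a description only, since the types may rest on this gene. Of the 2826 RGCs with at least 5 Zic1 puncta, 96.7% were W3B cells, and they made up 57.7% of all W3B cells.

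Beyond the markers, W3B was described by the 15 genes with the highest log2 ratio to the mean of the other types. Isl2, which encodes a LIM homeodomain transcription factor, had 10.8 ± 1.3 puncta per 1000 in W3B cells and 2.22 ± 0.24 in the other types, a log2 ratio of 2.28 ± 0.04. Pcdh17, which encodes a protocadherin, a cell adhesion protein, had 9.93 ± 0.58 and 2.63 ± 0.15, a log2 ratio of 1.91 ± 0.06. Scn7a, a gene of the sodium channel family, had 9.86 ± 0.89 and 3.45 ± 0.19, a log2 ratio of 1.51 ± 0.06. Hpcal1, which encodes a neuronal calcium sensor protein, had 19.5 ± 2.5 and 8.51 ± 0.87, a log2 ratio of 1.19 ± 0.05. Zic1, Pcdh17 and Hpcal1 were the 3 genes of which W3B had the highest level among the 45 types. The lead was narrow for Pcdh17, where 39_Novel reached 9.76 per 1000, and for Hpcal1, where 35_Novel reached 18.1. Isl2 had rank 2, just under 13_Novel at 10.8 per 1000.

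The other genes of that set were genes of transmitter receptors and their partners, channels and secreted or vesicle proteins. Grm3, Grm5 and Grm8, which encode metabotropic glutamate receptors, had log2 ratios of 1.34 ± 0.09, 1.02 ± 0.12 and 0.94 ± 0.13. Cacng3, whose protein is an auxiliary subunit of AMPA receptors, stood at 1.15 ± 0.10, and Gabrg3, a GABA-A receptor subunit gene, at 0.94 ± 0.06. Kcnd2, which encodes a potassium channel of the fast inactivating A type, stood at 1.30 ± 0.08. Ramp3, a partner of calcitonin family receptors, and Sv2c, a synaptic vesicle protein gene, both stood at 0.97, with SDs of 0.09 and 0.04. Fgf1, a fibroblast growth factor gene, stood at 0.94 ± 0.05. Not all of the 15 genes marked W3B: Gabrg3 had rank 9 and Fgf1 rank 6 among the types, and Grm3 was found at only 0.163 ± 0.018 puncta per W3B cell. With cells thinned to equal depth, Kcnd2 was found in 68.5% ± 3.0 of 23_W3D2 cells against 41.2% ± 4.2 of W3B cells. Grm5 was found in 25.6% ± 1.7 of 02_W3D1.2 cells against 21.2% ± 1.6 of W3B cells. Ramp3 was found in 11.5% ± 2.4 of 20_Novel cells against 9.48% ± 1.38 of W3B cells. Gabrg3 was found in 45.3% ± 2.0 of 23_W3D2 cells against 44.2% ± 1.5 of W3B cells. For Kcnd2, Grm5, Ramp3 and Gabrg3, the remaining types among the other W3 types, 19_Novel and 20_Novel lay below W3B.

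**Figure D2:**
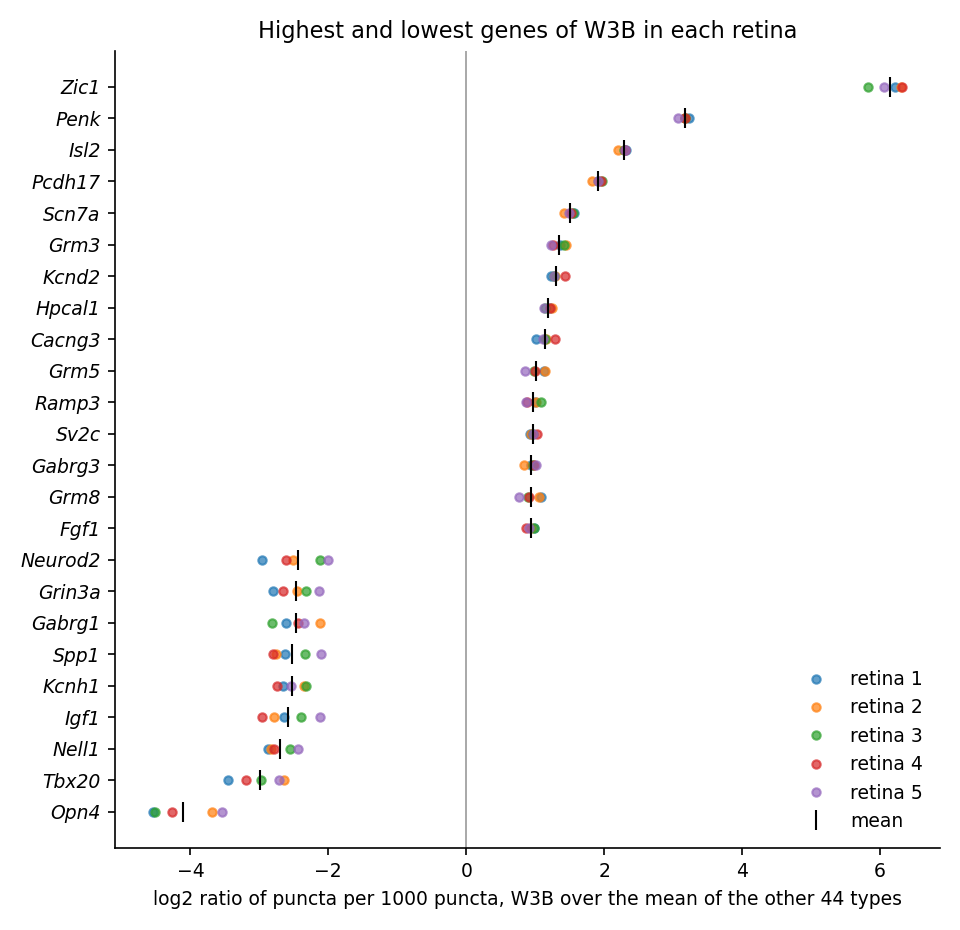
log2 ratio of puncta per 1000 puncta, W3B over the mean of the other 44 types, for the 15 highest genes and 9 of the lowest; each point is 1 of the 5 retinas and the bar is their mean. Zic1 (6.14) stands apart from Penk (3.17) and Isl2 (2.28), and Opn4 (-4.11) is the lowest.

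The lowest genes were chosen by their low ratio in W3B, so each was bound to be highest in another RGC type. Opn4, which encodes the photopigment melanopsin, had 0.0246 ± 0.0069 puncta per W3B cell and 0.407 ± 0.075 per cell in the mean of the other types, a log2 ratio of -4.11 ± 0.47 on the per 1000 scale. Tbx20, a T-box transcription factor gene that was highest in 07_Novel, stood at -3.00 ± 0.34. Nell1 (-2.70 ± 0.19) and Igf1 (-2.58 ± 0.33) encode secreted proteins, and Spp1 (-2.52 ± 0.30) encodes osteopontin, which was highest in 43_AlphaONS. Kcnh1, a voltage-gated potassium channel gene, stood at -2.52 ± 0.18, the GABA-A receptor subunit gene Gabrg1 at -2.47 ± 0.26 and the NMDA receptor subunit gene Grin3a at -2.47 ± 0.26. The transcription factor gene Neurod2, highest in 35_Novel, stood at -2.44 ± 0.39. These genes were at 0.02 to 0.32 puncta per W3B cell, so most W3B cells held none.

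Over the whole panel, 53 of 300 genes were higher in W3B than in the mean of the other types in all 5 retinas and 200 were lower, and the median log2 ratio was -0.40. A mean over types is raised by a few types with high levels. Such counts were not made for other types, so neither these nor the list counts below are read as particular to W3B. Among 24 genes of RGC transcription factors and of Rbpms, an RNA-binding RGC marker, 4 were higher in all retinas and 20 lower, with a median of -0.73. The 4 were Zic1, Isl2, Pax6 (0.11 ± 0.02) and Rbpms (0.04 ± 0.02). Those lower included Eomes (-2.09 ± 0.17), Foxp2 (-1.84 ± 0.36), Meis2 (-1.33 ± 0.11), Irx3 (-0.78 ± 0.11) and Pou4f2 (-0.48 ± 0.06), the gene of a POU domain factor found in most RGCs. Of the 7 neuropeptide genes on the panel, Penk was higher in all 5 retinas and Tac2 (-0.46 ± 0.13), Cck (-1.60 ± 0.54) and Sst (-2.59 ± 0.45) were lower. Sst, Vip and Cck were at under 0.05 puncta per W3B cell.

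Channels and receptors were mixed. Of 31 genes of potassium channels and their partners (by symbol, which takes in the non-coding Kcnq1ot1), 5 were higher in all retinas and 23 lower, with a median of -0.41. The 5 were Kcnd2, Kcnc4 (0.58 ± 0.11), Kcnip4 (0.51 ± 0.07), Kcna4 (0.43 ± 0.08) and Kcnab2 (0.39 ± 0.03). Kcnd2, Kcna4 and Kcnc4 encode channels of rapidly inactivating current, and Kcnip4 encodes a partner of the Kcnd2 family. Kcnd3, the gene of a close relative of Kcnd2, was lower at -1.15 ± 0.07. Kcnj9, an inward rectifier gene, was lower in W3B (-0.97 ± 0.10) than in each of the other 44 types. Of 9 sodium channel genes 4 were higher and 3 lower, with a median of 0.07, and Scn4b, a beta subunit gene, was at -1.76 ± 0.22. Of 16 genes of calcium channel subunits and their family 9 were higher and 4 lower, with a median of 0.09. Next to Cacng3, Cacng4 stood at 0.72 ± 0.07 and Cacng5 at 0.48 ± 0.07, while Cacna1e, a pore-forming subunit gene, was at -1.85 ± 0.39.

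Of 14 glutamate receptor genes 7 were higher in all retinas and 5 lower, with a median of 0.07. Beside the metabotropic genes, the AMPA receptor subunit genes split: Gria3 was at 0.78 ± 0.07 and Gria2 at 0.18 ± 0.02, while Gria4 was at -0.25 ± 0.05 and Gria1 at -1.40 ± 0.16. Of 15 GABA and glycine receptor genes 5 were higher and 6 lower, with a median of -0.20. Of the gamma subunit genes named above, Gabrg3 was high and Gabrg1 low. Among the glycine receptor alpha subunits Glra2 was at 0.76 ± 0.09 and Glra1 at -0.88 ± 0.17.

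Of 6 RGC markers 2 were higher in W3B in all retinas and 4 lower, with a median of -0.31. Slc17a6, the vesicular glutamate transporter gene of RGCs, was at 11.5 puncta per cell in both W3B and the mean of the other types, and Nefh, a neurofilament gene, at 5.10 and 6.48. Markers of other cells that an outline could take in were summed per list. The 14 amacrine genes summed to 38.4 to 40.9 per 1000 in W3B cells and 39.5 to 42.2 in the other types, and 2 of them were higher in W3B in all retinas, Pax6 and the glycine transporter gene Slc6a9 (0.70 ± 0.28). Of 11 bipolar genes 1 was higher in all retinas, Prkca, a protein kinase C gene, at 0.73 ± 0.10. The 6 horizontal cell genes summed to 5.33 to 6.58 against 14.6 to 15.3. The 3 rod genes summed to 2.21 to 5.24 against 2.60 to 5.80, and the 5 Müller glia genes to 4.12 to 5.82 against 4.69 to 6.38. The 2 microglia genes summed to 0.0593 to 0.156 against 0.320 to 0.582. No marker gene on the panel for rods, cones, microglia, astrocytes, horizontal cells, endothelium or Müller glia was higher in W3B in all 5 retinas.

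The types most like W3B over the panel were compared by Spearman correlation across the 300 genes, which are not independent replicates. The closest was another W3 type, 02_W3D1.2, at 0.93, followed by 03_FminiON at 0.92. Then came 15_Novel, 21_Tbr1_S2 and 13_Novel, ahead of 01_W3D1.1, which had rank 6 at 0.91. The remaining W3 type, 23_W3D2, had rank 12 at 0.89. Against 02_W3D1.2, W3B had a log2 ratio of 6.81 ± 0.18 for Zic1, 5.28 ± 0.23 for Penk, 3.39 ± 0.13 for Scn7a and 2.37 ± 0.13 for Gabrg3. In the other direction Lypd1, which encodes a regulator of nicotinic receptors, was at 0.0925 ± 0.0144 puncta per cell in W3B and 2.69 ± 0.48 in 02_W3D1.2, a log2 ratio of -4.93 ± 0.29. Ppp1r17, a phosphatase regulator gene, was at -2.36 ± 0.15 and Onecut1 at -2.40 ± 0.08. Against 01_W3D1.1 the largest differences were Zic1 at 6.05 ± 0.09, Penk at 4.69 ± 0.11 and Isl2 at 3.45 ± 0.08 on the high side and Amigo2, an adhesion protein gene, at -3.05 ± 0.21 and Gabrb1 at -2.74 ± 0.20 on the low side.

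Against 23_W3D2, W3B was higher in Zic1 (6.65 ± 0.25), Penk (5.53 ± 0.40), Pcdh17 (4.72 ± 0.22) and Sv2c (3.32 ± 0.24). It was lower in Pvalb (-3.48 ± 0.29), the parvalbumin gene, and Stk32a (-2.63 ± 0.22). Isl2 was shared to different degrees within the W3 names. It was found in 89.1% ± 3.5 of W3B cells, 72.8% ± 5.3 of 23_W3D2 cells, 72.3% ± 4.6 of 02_W3D1.2 cells and 16.6% ± 1.7 of 01_W3D1.1 cells. Scn7a was found in 87.8% ± 2.1 of W3B and 83.8% ± 2.5 of 23_W3D2 cells but in 19.8% ± 2.3 of 02_W3D1.2 and 20.7% ± 1.5 of 01_W3D1.1 cells. Median depths were 323, 356, 302 and 188 puncta in W3B, 23_W3D2, 02_W3D1.2 and 01_W3D1.1.

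The other types with high Penk were set against W3B gene by gene. Against 19_Novel, W3B was higher in Zic1 (6.32 ± 0.85), Isl2 (4.70 ± 0.36), Pcdh17 (4.37 ± 0.30) and Gabrg3 (3.42 ± 0.34), and lower in Neurod2 (-5.25 ± 0.40) and Nell1 (-4.32 ± 0.16). Against 20_Novel it was higher in Zic1 (6.28 ± 0.11), Pcdh17 (4.22 ± 0.36) and Isl2 (3.85 ± 0.23), and lower in Neurod2 (-4.54 ± 0.42), Nell1 (-3.35 ± 0.19) and Meis2 (-2.97 ± 0.15). Neurod2, the gene of a neurogenic transcription factor, was found in 4.24% ± 0.79 of W3B cells, 74.0% ± 1.6 of 19_Novel cells and 62.0% ± 2.5 of 20_Novel cells. The panel held 3 of 4 genes listed for N-RGCs, a group that includes RGCs expressing Neurod2. Of these Penk was high in W3B, and S100b (-0.69 ± 0.23) and Neurod2 were low.

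W3B cells kept a distance from each other. Among the 5 nearest RGCs of a W3B cell, the share of W3B cells was 0.509%, 1.19%, 1.02%, 0.326% and 1.38% in retinas 1 to 5, against 3.95%, 3.93%, 3.61%, 3.93% and 4.01% among its 51st to 100th nearest RGCs. The 2 sets of values did not overlap. The log2 ratio was -2.30 ± 0.34 (SE, n = 5; 4.94-fold lower) and passed limma's moderated test with an adjusted p of 0.0014. The background is high: 77.8% of the 45 types were called, 75.6% with fewer neighbours of their own type, and W3B had rank 8 from the lowest ratio. Over the retinas, a two-sided exact permutation test by sign flips gave p = 0.0625, the smallest p that 5 retinas allow. The difference from the other W3 types was -1.59 ± 0.39 for 01_W3D1.1 (exact sign-flip p = 0.0625), -0.33 ± 0.39 for 02_W3D1.2 (exact p = 0.4375) and 0.24 ± 0.62 for 23_W3D2 (exact p = 0.75), unadjusted for the 3 comparisons. With 5 retinas this test cannot reach the threshold, so it decides none of the 3. The difference from 01_W3D1.1 had the smallest p possible, and the differences from 02_W3D1.2 and 23_W3D2 were smaller than their SE.

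The distance profile showed the gap around each cell. Of all RGCs at 10 to 20 units from a W3B cell, in the position units of the table, whose physical size is not stated, 0.447% ± 0.119 were W3B cells. The share was 0.818% ± 0.322 at 20 to 30 units, 1.46% ± 0.33 at 30 to 40, 2.57% ± 0.44 at 40 to 50 and 3.34% ± 0.19 at 50 to 60. At 60 to 70 units it reached 4.08% ± 0.30 and at 70 to 80 units 4.21% ± 0.42, and further out it stayed between 3.74% and 3.95%. The depletion thus spanned about 10 to 60 units. Below 10 units the share was higher again, 2.62% with a range from 0.230% to 4.01% over the retinas. This rested on 93 W3B cells with another one within 10 units, 1.98% of those examined, of which 50 lay in retina 2 and 2 in retina 4. Their median volume was 671, against 602 in the remaining W3B cells, and their median depth was 278 against 323 puncta. Whether they are separate cells was not tested.

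**Figure D3:**
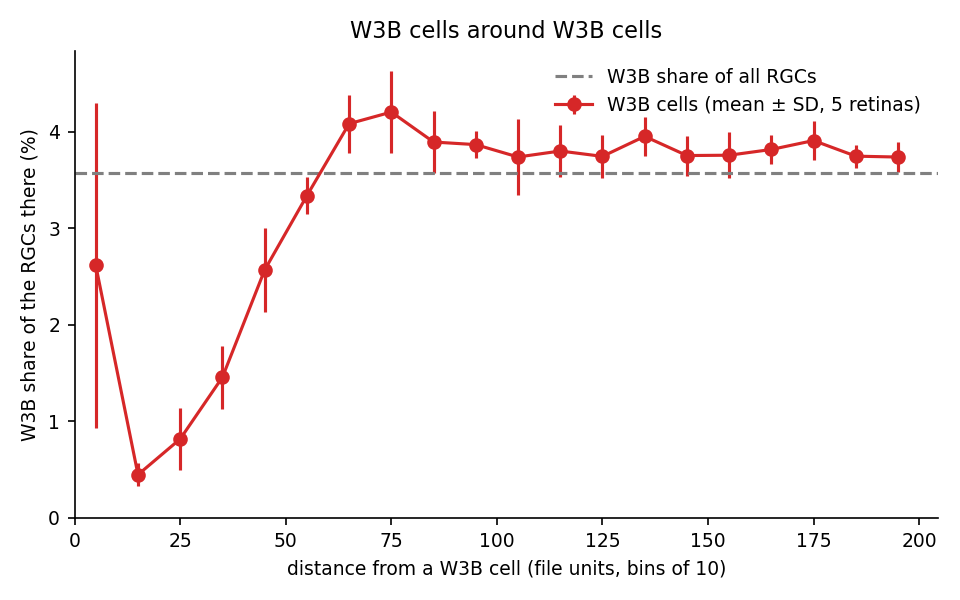
Share of W3B cells among all RGCs (percent) in rings of 10 units around W3B cells, against distance in the units of the table; points are means over 5 retinas, bars are SD and the dashed line is the W3B share of all RGCs. The share is 0.447% at 10 to 20 units and 4.21% at 70 to 80 units, with a higher and more variable value below 10 units.

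The nearest other W3B cell lay at a median of 59.5, 59.8, 57.0, 58.1 and 58.1 units in retinas 1 to 5. The regularity index, the mean nearest distance divided by its SD, was 1.16 ± 0.33 over all sections with at least 20 W3B cells. A random pattern of points has an index of 1.91. Over all sections the mean index lay below this for every type examined, from 0.82 to 1.30. The index over all sections was therefore not read against the random value. In the regions that the authors marked in the table, which held 580 W3B cells, the index was 2.97 ± 0.54, with a range from 2.18 to 3.71. There it was 3.11 ± 0.48 for 04_FminiOFF, 2.94 ± 0.44 for 03_FminiON, 2.83 ± 0.27 for 02_W3D1.2 and 2.48 ± 0.31 for 01_W3D1.1. The sources used here do not say how these regions were chosen.

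No other type was called more or less often next to W3B cells. Of the other 44 types none passed the adjusted threshold in limma (0% called) and 10 had an unadjusted p under 0.05. The smallest adjusted p was 0.215. The smallest unadjusted p was that of 02_W3D1.2, which made up 6.38% ± 0.65 of the 5 nearest RGCs and 5.64% ± 0.64 of the 51st to 100th nearest, a log2 ratio of 0.18 ± 0.05. Without retina 4, 1 type passed, 40_M1dup, with fewer neighbours at -0.36 ± 0.07 and an adjusted p of 0.0441.

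W3B cells were of middling size. The deposited volume, whose unit is not stated, equals that of an ellipsoid inside the deposited rectangular volume. Its median in W3B cells was 609, 619, 626, 554 and 628 in retinas 1 to 5, and they had rank 22 of 45. Retina 4 stood below the other 4, as it did in most other types. Of the other 44 types 63.6% differed from W3B in limma, with W3B larger than 15 and smaller than 13. W3B was larger than 01_W3D1.1 (log2 difference 0.54 ± 0.02, SE, adjusted p 1.8e-06) and than 02_W3D1.2 (0.11 ± 0.02, adjusted p 0.0014), and smaller than 23_W3D2 (-0.14 ± 0.04, adjusted p 0.0068). The W3 types therefore had volumes of 418 ± 28 for 01_W3D1.1, 564 ± 33 for 02_W3D1.2, 607 ± 31 for W3B and 673 ± 70 for 23_W3D2 (SD). W3B was smaller than 43_AlphaONS by a log2 difference of -0.59 ± 0.04 and than 45_AlphaOFFT by -0.58 ± 0.03, alpha cells being the largest RGCs by soma, and larger than the melanopsin type 33_M1 by 0.36 ± 0.02. An exact sign-flip test cannot reach the threshold with 5 retinas, so it decides none of the 44 differences. The smallest adjusted p that it gave was 0.0948. The mean DAPI intensity of W3B cells, a nuclear stain, was 1533 ± 194, rank 10 of 45.

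No difference in the W3B share was called between parts of the retina. On the circle to which the authors scaled each retina, cells at a radius of at least 0.5 were taken as peripheral and the rest as central. The W3B share was 3.65%, 3.65%, 3.35%, 3.46% and 3.13% in the periphery of retinas 1 to 5, against 3.38%, 3.87%, 3.62%, 3.72% and 3.85% in the centre. It was lower in the periphery in 4 of 5 retinas, and higher in retina 1. The log2 change was -0.08 ± 0.06 (SE) and did not pass (edgeR adjusted p 0.297), where 42.2% of the 45 types were called along this axis, 26.7% higher and 15.6% lower. Without retina 1 the change was -0.14 (edgeR adjusted p 0.104) and without retina 5 it was -0.04 (edgeR adjusted p 0.646). By rings the mean share was 3.69% ± 0.41 within a radius of 0.2, 3.60% ± 0.30 from 0.2 to 0.4, 3.60% ± 0.14 from 0.4 to 0.6, 3.55% ± 0.23 from 0.6 to 0.8 and 3.29% ± 0.23 beyond 0.8, where 1 retina had 17 W3B cells.

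**Figure D4:**
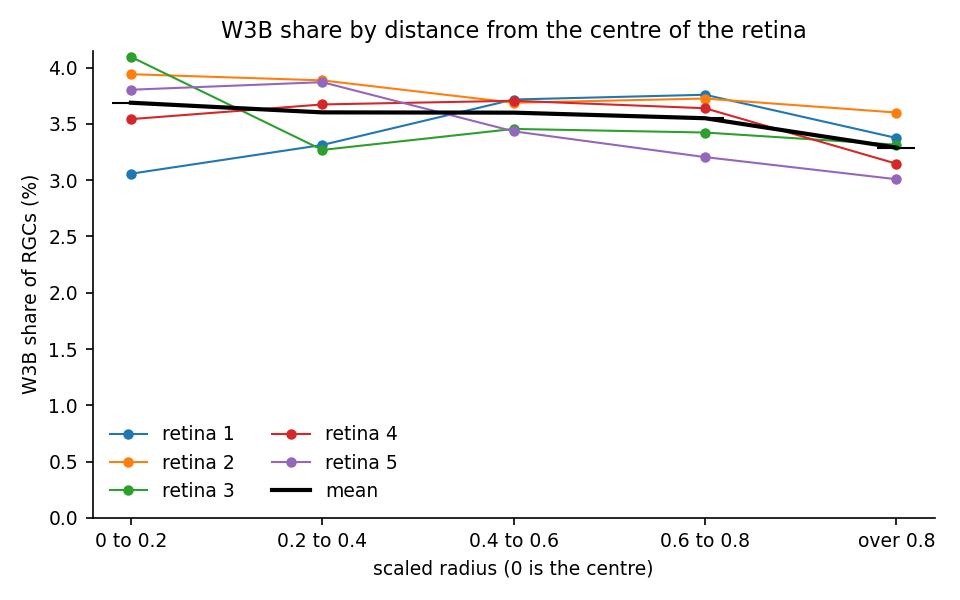
W3B share of RGCs (percent) by scaled radius from the centre; each line is 1 of the 5 retinas and the black line is their mean. The mean lies between 3.69% in the innermost and 3.29% in the outermost ring, and the lines of single retinas cross.

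The share was also compared across the scaled axes. The labels give no anatomical direction for them. With Y above 0 the share was 3.59% ± 0.13 and with Y below 0 3.58% ± 0.15, a log2 change of 0.005 ± 0.050 (edgeR adjusted p 0.929), where 0% of the types were called. With X above 0 it was 3.57% ± 0.11 and with X below 0 3.58% ± 0.08, a log2 change of -0.0008 ± 0.0338 (edgeR adjusted p 0.982), where 28.9% of the types were called, 17.8% higher and 11.1% lower. The 4 quadrants had means between 3.54% and 3.61%.

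Few genes were called with position inside W3B cells. Puncta were summed per retina and side, over 2998 peripheral and 1739 central W3B cells in all. Single retinas held 202 to 977 peripheral and 245 to 559 central W3B cells. Of 272 genes tested 4 were called higher in the periphery and none lower (1.47% called), where 2.21% of all type and gene pairs were called. An unadjusted p under 0.05 in edgeR was reached by 40 genes, so smaller changes may have been missed. Fxyd6, which encodes a regulator of the sodium pump, had 2.90, 3.05, 2.96, 2.99 and 4.80 puncta per 1000 in peripheral cells of retinas 1 to 5, against 2.38, 1.96, 2.54, 1.76 and 2.52 in central cells. Every peripheral value lay above every central one. The log2 change was 0.60 ± 0.08 (SE, 1.51-fold, edgeR adjusted p 0.0001).

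Spc25, which encodes a part of the kinetochore, had 17.2, 17.2, 17.2, 13.0 and 18.3 puncta per 1000 in peripheral W3B cells, against 13.8, 13.9, 16.8, 10.3 and 14.2 in central ones. It was higher in the periphery in all retinas, by little in retina 3, with a log2 change of 0.30 ± 0.04 (edgeR adjusted p 0.00055). Sparc, the gene of a matricellular protein, changed by 0.28 ± 0.06 (edgeR adjusted p 0.013) and was lower in the periphery of retina 3. Gnat1, the gene of rod transducin, changed by 0.65 ± 0.15 (edgeR adjusted p 0.0205) and was lower in the periphery of retina 1. Sparc and Gnat1 both missed the threshold without retina 2, 4 or 5, and Gnat1 also without retina 3, and with slide within retina (0.48) or section (0.40) as the block. Without a block for the retina, Fxyd6 alone passed. Without retina 1, 11 genes were called, among them all 4. With the split at 0.7, Spc25 (0.11, edgeR adjusted p 0.282) and Sparc (0.13, edgeR adjusted p 0.379) missed the threshold.

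**Figure D5:**
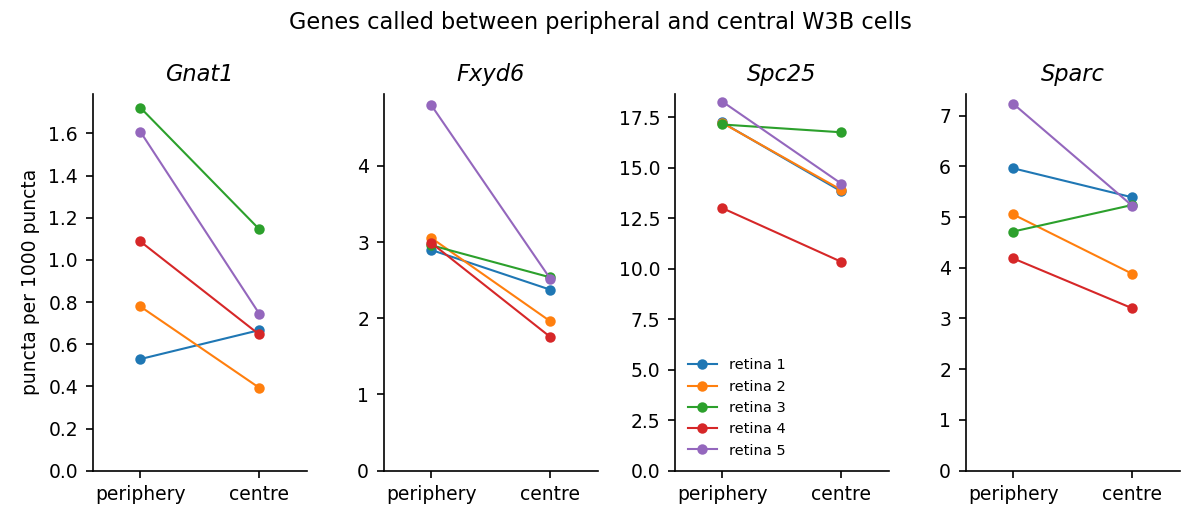
Puncta per 1000 puncta of the 4 genes called between peripheral (left) and central (right) W3B cells; each line joins both sides of 1 of the 5 retinas. Fxyd6 and Spc25 are higher in the periphery in all 5 retinas, and Gnat1 and Sparc in 4.

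Gnat1 is one of 3 rod genes on the panel, and rods lie outside the ganglion cell layer. The 3 rod genes summed to 2.10 to 5.74 per 1000 in peripheral W3B cells and 1.85 to 4.82 in central ones, higher in the periphery in 4 of 5 retinas, with a median log2 change of 0.42 beside 0.01 over all genes tested. The 5 Müller glia genes had a median of 0.22 and summed to 4.48 to 6.75 against 3.05 to 5.99, higher in 3 of 5 retinas. The 14 amacrine genes summed to 38.1 to 39.9 against 39.3 to 41.6, lower in the periphery in all 5 retinas, and none of the 10 tested was called. The part of these cells in the changes was not tested. Depth was alike on either side, with medians of 318 ± 21 and 320 ± 30 puncta. The same 4 genes were not particular to W3B. Among 37 types fitted in the same way Fxyd6 was above 0 in all 37 and called higher in 26, Spc25 was called higher in 17, Sparc in 9 and Gnat1 in 7, W3B included. For none of the 300 genes was a difference called between the radial change in W3B and that in the other RGCs as 1 pool (edgeR interaction, 0% called, 12 genes at an unadjusted p under 0.05). That pool joins types whose shares change along the radius, so its change can hold shifts in type numbers beside changes within cells.

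No change between periphery and centre was called in the genes that describe W3B. Zic1 had 17.4 ± 1.7 puncta per 1000 in peripheral W3B cells and 16.7 ± 2.0 in central ones, a log2 change of 0.08 ± 0.04 (edgeR adjusted p 0.348). Penk had 37.9 ± 2.5 and 38.6 ± 1.1, a change of -0.01 ± 0.04 (edgeR adjusted p 0.971). Isl2 had 11.2 ± 1.2 and 10.3 ± 1.3, higher in the periphery in all 5 retinas at 0.13 ± 0.04 but short of the threshold (edgeR adjusted p 0.0836). In the other RGCs together, where shifts in type shares count too, Penk had 2.72 puncta per 1000 in the periphery and 3.34 in the centre. Zic1 had 0.20 and 0.24 there. The smallest p-values of the interaction were those of Zic1 (0.34 ± 0.08) and Penk (0.27 ± 0.07), both with an edgeR adjusted p of 0.128. Penk passed when total puncta served as the scale (0.27 ± 0.04, edgeR adjusted p 0.0052) and without retina 5 (0.35 ± 0.06, edgeR adjusted p 0.0067), and against the other W3 types alone its difference was 0.11 ± 0.10. No gene of the lists of transcription factors, channels, receptors or neuropeptides was called along the radius in W3B.

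Along X, 3 of 284 genes were called in W3B (1.06%), where 0.282% of all type and gene pairs were. An unadjusted p under 0.05 in edgeR was reached by 33 genes. The called genes were Fxyd6, Spp1 and Ppp1r17. Fxyd6 was higher with X above 0, with 3.25 ± 0.59 puncta per 1000 against 2.41 ± 0.17 with X below 0, a log2 change of 0.41 ± 0.07 (edgeR adjusted p 0.0042). Spp1 was higher, with 1.16 ± 0.23 against 0.830 ± 0.257, a change of 0.52 ± 0.11 (edgeR adjusted p 0.036). Ppp1r17 was lower, with 2.49 ± 0.42 against 3.11 ± 0.28, a change of -0.31 ± 0.06 (edgeR adjusted p 0.0313). All 3 moved the same way in every retina. None passed without retina 1 or without retina 2, Spp1 missed the threshold without retina 4, and only Fxyd6 of the 3 passed with slide or section as the block or in DESeq2. The 5 Müller glia genes summed to 4.30 to 7.09 per 1000 with X above 0 and 3.92 to 5.15 with X below 0, higher with X above 0 in all 5 retinas. The 2 cone genes summed to 0.171 to 0.381 with X above 0 and 0.246 to 0.396 with X below 0, lower with X above 0 in all 5 retinas. The part of these cells in the changes along X was not tested. The sign was shared by most other types: of 34 types fitted, Fxyd6 was above 0 in all, Spp1 in 32 and Ppp1r17 in 12. Without retina 3, 8 genes were called, and without retina 5, 6. Along Y none of 283 genes was called in W3B by edgeR or DESeq2, and 33 had an unadjusted p under 0.05 in edgeR. The interaction with the other RGCs, again as 1 pool of types, called none of 300 genes along X or Y, with 14 at an unadjusted p under 0.05 on each.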

How the data were processed

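Whole-number puncta counts per cell and gene were used as deposited by the authors, with the retina, section, position, extents, type and mean DAPI intensity of each cell, per the file headers. Segmentation, the filters on cells and the way types were assigned are not given in the sources used here. The 4 samples in the labels are pairs of slides that no label ties to the table's 8 slides, of which 2 held more than 1 retina, so the retina was the replicate. Cell names did not repeat.

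Levels are puncta per 1000 puncta of the summed cells, W3B over the unweighted mean of the other types, and their log2 ratios had no pseudocount. Position and interaction tests used edgeR 4.0.16 (quasi-likelihood, retina as a block, TMM and filterByExpr for genes) on sums per retina and side. For genes within types each sum held at least 50 cells, and the shares of all 45 types were tested with no such minimum. Benjamini-Hochberg adjustment ran over 45 types for shares, all type and gene pairs of an axis for genes, and 300 genes for interactions. The threshold was 0.05. Neighbours (sections with at least 200 RGCs, 0.5 added to each count) and volume used limma 3.58.1. DESeq2 1.42.0 was an alternative. R 4.3.3 and Python 3.11.15 were used. The edgeR gene fit within W3B and a limma fit against 0 were run on simulated data, and the share and interaction fits were not. Named genes were the 15 highest and 10 lowest log2 ratios of W3B over the other types, among genes at no fewer than 0.05 puncta per cell in W3B (highest) or the other types (lowest) and in 1 direction in all 5 retinas, members of the lists, and, for position, genes past the threshold with at least 100 puncta in W3B and 1 direction in all retinas. Sparc and Gnat1, which differed in direction in 1 retina, and the genes told apart between W3B and single types were named after their values were seen. Results for some genes under these rules are not reported here. Members, lists and tests were chosen with earlier results of these data known.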

Additional observations from a re-analysis of the deposited data

Results flagged for a closer look

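Among 44 sets of 5 values, 1 per retina, 3 held a retina whose gap to the nearest other retina took up most of the range (Dixon's criterion, critical value 0.71). Chance flags about 5% of sets. The share of W3B cells among the 51st to 100th nearest RGCs was 3.61% in retina 3, against 3.93% in the next retina. The median volume of W3B cells was 554 in retina 4, against 609 in the next. This was not particular to W3B: retina 4 had the lowest median volume in most other types. It stood at 382 in 01_W3D1.1, 506 in 02_W3D1.2 and 578 in 23_W3D2. The radial log2 ratio of Spc25 in W3B was 0.033 in retina 3, against 0.31 in the next retina. No cause of these values was tested.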

How the results depend on the processing

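The radial share change, -0.08 (log2), ran from -0.138 to -0.0442 with 1 retina left out. The W3B share along Y, 0.005 (log2), turned to -0.0375 in DESeq2 and ran from -0.0251 to 0.0337 with 1 retina left out. Along X, -0.0008 turned to 0.0160 with section as the block and ran from -0.00966 to 0.0104 with 1 retina left out, and none of these passed. The 4 genes called along the radius became 1 with no replicate block and 2 to 11 with 1 retina left out. The 3 along X became 0 with no replicate block, 1 in DESeq2, 6 adjusted over the genes of W3B alone and 0 to 8 with 1 retina left out. Along Y, 0 became 1 with section as the block and 0 to 2 with 1 retina left out. With no replicate block the share changes were -0.0876 (radius), 0.00395 (Y) and -0.00046 (X), and none passed. The radial interaction, with 0 genes called, called 1 with total puncta as the scale and 0 to 1 with 1 retina left out, and other types next to W3B 0 to 1. The exact sign-flip test gave -2.30 for neighbours of the same type (p = 0.0625) and called 0 of the 28 volume differences, and 5 retinas allow no p under 0.0625. Of 25 named levels, 14 moved by more than the spread between retinas when other RGCs were pooled by cell number, Penk to 3.70 and Opn4 to -2.95, 4 moved on the scale of puncta per cell, and none changed sign. The causes were not tested. Rare genes and retinas 3 and 5, with the fewest W3B cells, limit the depth.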
